A study of Rattus norvegicus with 12 samples.

Results

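The genes of the circadian clock were followed here in lung RNA from 12 rats with pulmonary hypertension induced by monocrotaline (MCT), a plant toxin that injures the pulmonary vessels. The members were chosen by gene name as Arntl, Clock, Npas2, Per1, Per2, Per3, Nr1d1, Nr1d2, Dbp and Tef, and 9 of these 10 names were found among the 16957 genes listed in all 3 deposited tables. Clock was not found by name. A row named LOC100911602 (ENSRNOG00000002175), whose description in the tables reads clock, is shown beside the members but was not counted as one.

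All rats had received MCT at 60 mg/kg and were labeled as 9 weeks old, and a separate library was made from the lung of each rat. Osmotic minipumps delivered, per kg of body weight and day, 1 mg of angiotensin II (AngII), 14.4 mg of TRV023, 10 mg of losartan, or phosphate-buffered saline alone as vehicle, to 3 rats each. AngII is the natural agonist of the angiotensin II type 1 receptor, TRV023 is a β-arrestin-biased agonist of it, and losartan blocks it. Each drug group was compared with vehicle, and no rat without MCT was analysed here. The hour at which the lungs were taken was not found in the sources used, so the clock genes were examined for differences between libraries as well as between groups.

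In each cell, the proteins of Arntl and of Clock or Npas2 pair and bind E-boxes, switching on the Per, Nr1d, Dbp and Tef genes. The PER proteins return to block this pair, and the NR1D proteins (REV-ERBs) shut down Arntl through ROR elements, so that in most tissues Arntl and Npas2 are high when Dbp, Nr1d1 and the Per genes are low. In the lung this oscillator runs in airway epithelium and other cells, and Per1 is in addition a direct target of the glucocorticoid receptor. Arntl and Npas2 are called the Arntl arm below, and Per1, Per2, Per3, Nr1d1, Nr1d2, Dbp and Tef the Dbp arm.

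Promoters of all 10 members were matched by symbol (Arntl under its newer symbol Bmal1) in RefSeq, build GRCr8, as 12 windows of 300 bases, 250 before and 50 after a start site. The E-box CACGTG, the D-box TTANGTAA and the core of the ROR element, TAGGTCA, were searched on both strands, and none of the matches overlapped another. Matches lay before the start in 4 windows, which are shown because they carry the 3 motifs through which the arms of the clock are known to be joined. Each stretch is written 5′ to 3′ on the strand of its gene and ends before the start site, with the motif in capitals (the ROR element core in Arntl, the D-box in Per2 and the E-box in Nr1d1 and Tef).
Arntl chr1:176766265-176766327 (+ strand): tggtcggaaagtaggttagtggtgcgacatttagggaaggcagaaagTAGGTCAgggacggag
Per2 chr9:99497131-99497232 (- strand): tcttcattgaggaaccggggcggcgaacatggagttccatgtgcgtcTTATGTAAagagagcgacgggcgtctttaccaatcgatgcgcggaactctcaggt
Nr1d1 chr10:84229593-84229692 (- strand): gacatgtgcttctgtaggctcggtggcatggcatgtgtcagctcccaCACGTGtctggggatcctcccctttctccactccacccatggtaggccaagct
Tef chr7:115206582-115206681 (+ strand): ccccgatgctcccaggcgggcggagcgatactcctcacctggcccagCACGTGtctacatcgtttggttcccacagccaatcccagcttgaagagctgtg

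The motif began 16 bases before the start in Arntl, 192 in Per2, 191 in Nr1d1 and 198 in Tef. Of all 33469 promoters of this length, 6.42% held the E-box, 2.24% the D-box and 2.63% the ROR element core. The windows of Clock, Npas2, Per1, Per3, Nr1d2 and Dbp, and the other window of Nr1d1, held none of these letters, which says nothing of binding elsewhere in those genes. The matches are a description of sequence only.

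Counted reads per library ranged from 16106337 to 20096877, and every member was well covered, from the 104 reads of Nr1d2 in Veh_923 to the 4579 reads of Per1 in Veh_963. In all libraries Sftpc of alveolar type 2 cells was at 5224 FPKM or more and the endothelial gene Pecam1 at 134 FPKM or more. Of the other lung markers, Bpifa1, Dnah5, Marco and Cd79a were at 0 in at least 1 library. Of the heart muscle genes, Myh6 did not exceed 0.105 FPKM, whereas Tnnt2 ranged from 3.55 to 13.5 FPKM and Actc1 from 2.92 to 283.3 FPKM, with 2.92 to 35.5 FPKM in AngII, 6.69 to 22.3 in TRV023, 23.9 to 37.2 in losartan and 19.9 to 283.3 in vehicle. FPKM divides a read count by gene length and by library size. Libraries are named by group and number as in the labels, and the number was read as an animal number. The 4 libraries of Ang2_922, Veh_923, Veh_924 and Los_925 stood apart from the other 8 in the clock genes, although they came from 3 of the groups. These animals are called the 92x series below, and the others the 91x (Trv_917 and Trv_918), 93x (Trv_930, Ang2_931 and Ang2_933) and 96x (Veh_963, Los_964 and Los_965) series. What the number series stand for is not given in the labels, and the split was made after the values were seen.

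Arntl (ENSRNOG00000014448, chromosome 1, 185007568 to 185105409, plus strand, in the coordinates of the deposited tables, whose build is not given) encodes BMAL1, the central activator. It measured 12.7, 2.96 and 5.40 FPKM in AngII rats Ang2_922, Ang2_931 and Ang2_933, and 7.16, 6.86 and 11.02 FPKM in TRV023 rats Trv_917, Trv_918 and Trv_930. It measured 13.3, 12.3 and 9.58 FPKM in losartan rats Los_925, Los_964 and Los_965, against 12.7, 12.3 and 12.7 FPKM in vehicle rats Veh_923, Veh_924 and Veh_963. The vehicle libraries were almost equal, all 3 TRV023 libraries lay below them, and of the AngII libraries Ang2_931 and Ang2_933 lay far below while Ang2_922 sat among the vehicle values.

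Dbp (ENSRNOG00000021027, chromosome 1, 102766762 to 102771674, plus strand), whose product activates D-box genes, ran the other way. It measured 11.5, 44.4 and 30.7 FPKM in AngII rats Ang2_922, Ang2_931 and Ang2_933, and 18.4, 24.4 and 18.4 FPKM in TRV023 rats Trv_917, Trv_918 and Trv_930. In losartan rats Los_925, Los_964 and Los_965 it measured 8.84, 12.2 and 18.02 FPKM, against 6.24, 6.77 and 15.03 FPKM in vehicle rats Veh_923, Veh_924 and Veh_963. The TRV023 values did not overlap those of vehicle. Ang2_931 and Ang2_933 were the highest of all 12, whereas Ang2_922 fell within the vehicle range.

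**Figure D1:**
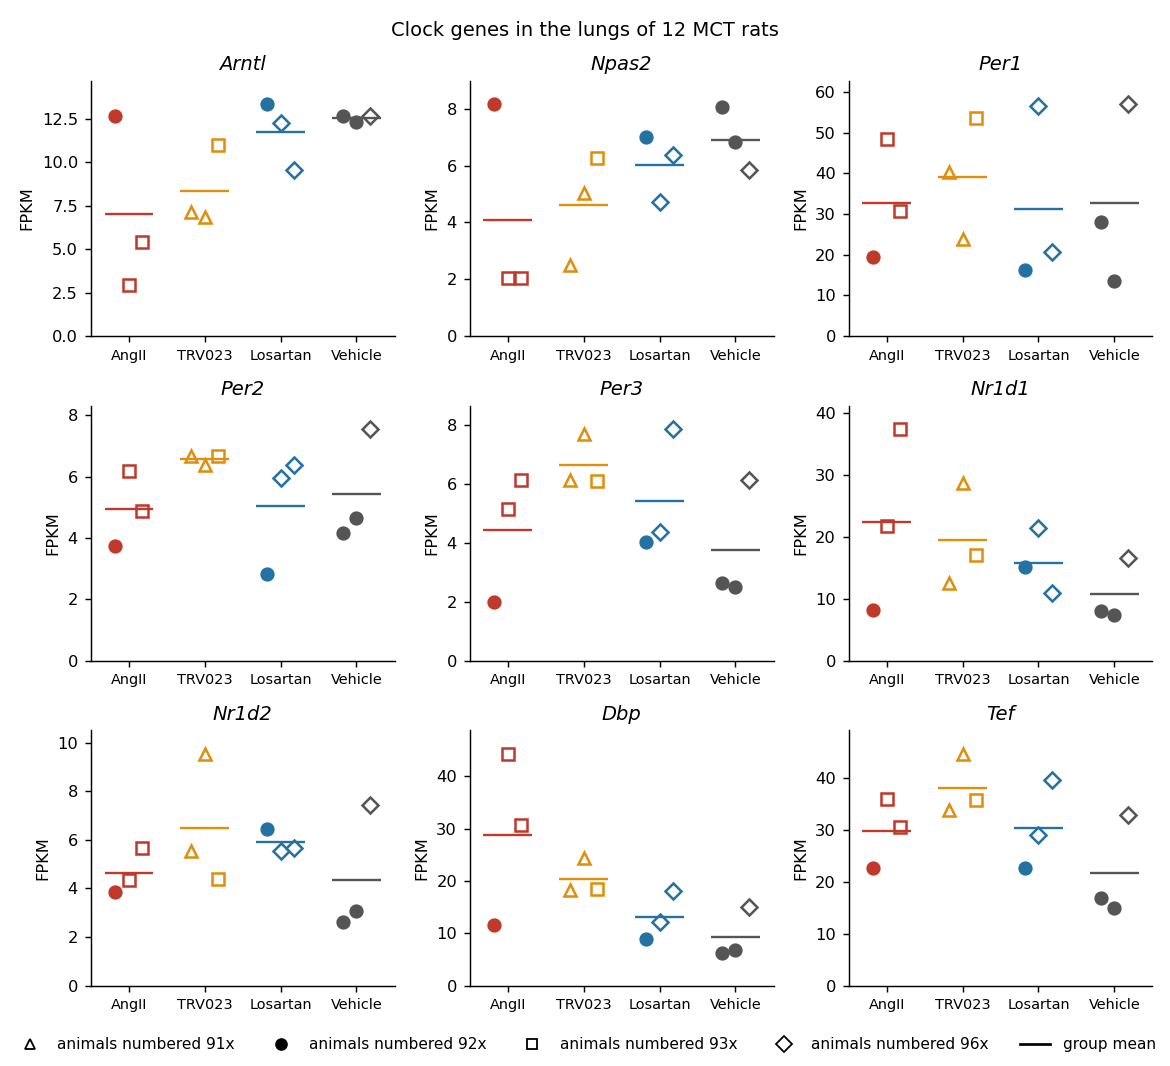
FPKM of the 9 clock genes in each of the 12 libraries by group, with lines at the group means (n = 3) and filled circles for the 92x series. The filled circles lie at the bottom of the panels for Per2, Per3, Dbp and Tef and at the top for Npas2, whichever the group.

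Npas2 (ENSRNOG00000013408, chromosome 9, 45590021 to 45769792, plus strand), the partner of BMAL1 that can stand in for CLOCK, averaged 4.09 ± 3.53 FPKM in AngII, 4.61 ± 1.92 in TRV023, 6.03 ± 1.18 in losartan and 6.90 ± 1.11 in vehicle (SD, n = 3 each). Tef (ENSRNOG00000019383, chromosome 7, 123019282 to 123034383, plus strand), a relative of Dbp that also binds D-boxes, averaged 29.7 ± 6.65 FPKM in AngII, 38.0 ± 5.81 in TRV023, 30.4 ± 8.51 in losartan and 21.6 ± 9.81 in vehicle. Npas2 was thus ordered as Arntl was, and Tef was lowest in vehicle.

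Nr1d1 (ENSRNOG00000009329, chromosome 10, 86479868 to 86486598, minus strand) encodes REV-ERBα, the repressor of Arntl. It averaged 19.5 ± 8.28 FPKM in TRV023 and 15.9 ± 5.27 in losartan (SD, n = 3 each). It measured 8.23, 21.8 and 37.5 FPKM in AngII rats Ang2_922, Ang2_931 and Ang2_933, against 8.11, 7.48 and 16.7 FPKM in vehicle rats Veh_923, Veh_924 and Veh_963. Ang2_922 was as low as the vehicle rats of its own number series, and the groups overlapped.

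Nr1d2 (ENSRNOG00000046912, chromosome 15, 12792822 to 12816505, plus strand), which encodes the related REV-ERBβ, averaged 4.63 ± 0.951 FPKM in AngII, 6.51 ± 2.71 in TRV023, 5.90 ± 0.497 in losartan and 4.36 ± 2.66 in vehicle. Per3 (ENSRNOG00000018413, chromosome 5, 171665221 to 171700125, minus strand), a lesser member of the period family, averaged 4.43 ± 2.17 FPKM in AngII, 6.64 ± 0.914 in TRV023, 5.43 ± 2.13 in losartan and 3.76 ± 2.06 in vehicle. Both were lowest on average in vehicle, with group ranges that overlapped.

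The core repressors Per1 and Per2 showed the least difference between group means. Per1 (ENSRNOG00000007387, chromosome 10, 55430184 to 55439080, plus strand) averaged 32.8 ± 14.6 FPKM in AngII, 39.2 ± 14.9 in TRV023, 31.1 ± 22.2 in losartan and 32.8 ± 22.2 in vehicle. Per2 (ENSRNOG00000020254, chromosome 9, 98231204 to 98273371, minus strand) averaged 4.94 ± 1.23 FPKM in AngII, 6.57 ± 0.175 in TRV023, 5.05 ± 1.95 in losartan and 5.45 ± 1.84 in vehicle. The spread of Per1 within the vehicle group, from 13.4 to 57.0 FPKM, was as wide as its spread over all 12 libraries. The row described as clock held 15 to 118 reads per library and averaged 1.402 ± 0.961 FPKM in AngII, 1.07 ± 0.299 in TRV023, 1.47 ± 0.783 in losartan and 1.402 ± 0.418 in vehicle.

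To determine whether the drugs changed the clock genes, each was tested against vehicle with edgeR's quasi-likelihood test, adjusted over all genes tested. The 3 comparisons share the vehicle libraries, so their values are not independent of each other. None of the 9 members passed an adjusted p of 0.05 with AngII, TRV023 or losartan, where 0.0133%, 0.00658% and 0% of all genes tested passed, in that order. At an unadjusted p under 0.05, 2 of 9 members passed with AngII, 4 of 9 with TRV023 and 0 of 9 with losartan, against 11.9%, 5.56% and 1.65% of all genes. Split by direction, 6.54% of all genes were higher and 5.39% lower with AngII, 2.61% and 2.96% with TRV023, and 0.686% and 0.963% with losartan. DESeq2 called no member in these 3 comparisons either, where it called 1.17%, 0.615% and 0.0382% of all genes.

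With AngII, both members that passed the unadjusted threshold were higher than in vehicle. The log2 fold change was 1.78 for Dbp (SE 0.515, unadjusted p = 0.00771, adjusted p = 0.347, edgeR) and 1.21 for Nr1d1 (SE 0.523, unadjusted p = 0.0466, adjusted p = 0.416, edgeR). Arntl differed by -0.73 and Npas2 by -0.65 on the log2 scale, with 95% intervals of -1.67 to 0.20 and -1.73 to 0.42. The median log2 fold change of the members was 0.22, beside -0.025 over all genes, and no member had AngII and vehicle values that did not overlap, as 9.46% of all genes had on the higher side and 9.17% on the lower. Leaving out Ang2_922 gave 5 members, where 20.4% of all genes passed, and leaving out Veh_963 gave 4, where 9.55% did. Leaving out Ang2_931, Ang2_933, Veh_923 or Veh_924 left 1 member, where 6.6% to 9.04% of all genes passed.

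With TRV023, 3 members were higher and 1 was lower at the unadjusted threshold. The log2 fold change was 1.12 for Dbp (SE 0.332, unadjusted p = 0.00968, adjusted p = 0.675, edgeR), 0.81 for Tef (SE 0.288, unadjusted p = 0.0221, adjusted p = 0.778, edgeR) and 0.81 for Per3 (SE 0.345, unadjusted p = 0.0455, adjusted p = 0.879, edgeR). For Arntl it was -0.59 (SE 0.196, unadjusted p = 0.0165, adjusted p = 0.723, edgeR). Dbp and Tef were higher in every TRV023 library than in any vehicle library, as 4.69% of all genes were, and Arntl was lower in every one, as 5.56% were. The median over the members was 0.56, beside -0.0016 over all genes. The count at the unadjusted threshold was 7 without Veh_963, where 8.13% of all genes passed, 2 without Veh_923 (4.71%) or Veh_924 (4.27%), and 1 without Trv_918 (6.42%). With number series as a covariate in a fit of all 12 libraries, the direction turned for Arntl (1.304), Dbp (-0.35) and Per3 (-0.44), and Tef was at 0.46. In that fit 5.76% of all genes passed the unadjusted threshold.

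With losartan, log2 fold changes of the members ran from -0.15 for Npas2 to 0.63 for Nr1d1, and all 9 of the 95% intervals spanned 0. The median was 0.48, beside 0.0063 over all genes. No member had losartan values that did not overlap those of vehicle, as 2.78% of all genes had on the higher side and 2.99% on the lower. Without Veh_963, 5 members passed the unadjusted threshold, where 1.86% of all genes did.

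**Figure D2:**
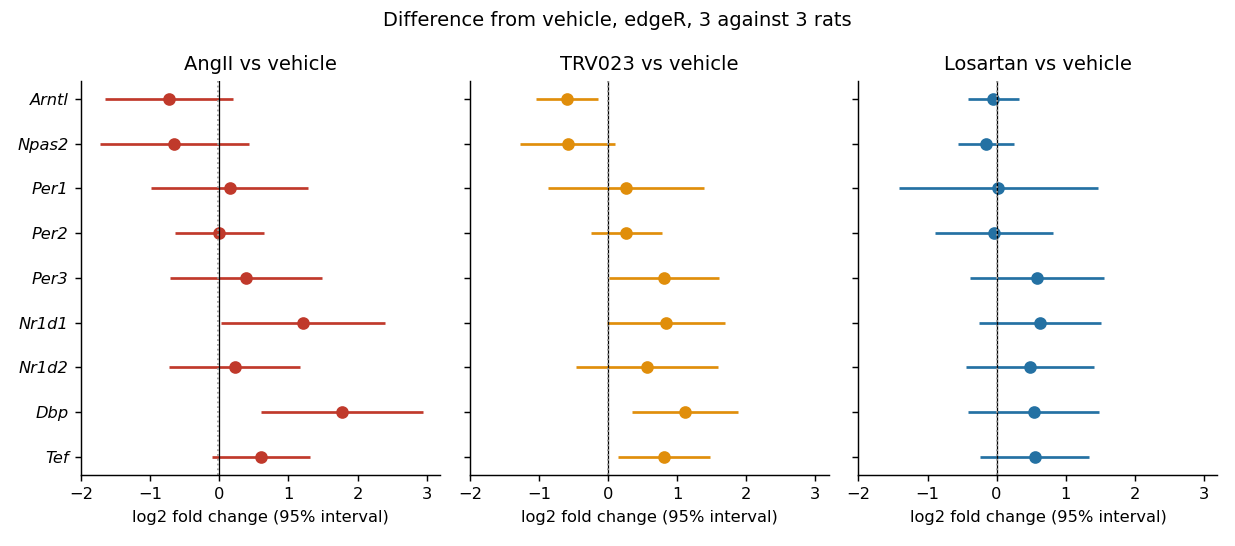
Log2 fold change of each clock gene against vehicle (points) with its 95% interval (lines) for AngII, TRV023 and losartan, from edgeR with 3 rats in each group. The dotted line is the median of all genes tested. Dbp has the largest value with AngII (1.78) and with TRV023 (1.12), and all losartan intervals span 0.

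In a single fit of all 12 libraries, a difference among the 4 groups was called for no member at an adjusted p under 0.05, where 0.0192% of all genes were called. Dbp came nearest, with an unadjusted p of 0.0113 (7.98% of all genes were under 0.05) and an adjusted p of 0.558 in edgeR. DESeq2 called Dbp, with an adjusted p of 0.0495, among the 1.11% of all genes it called. Between drugs, no member was called for AngII against TRV023, AngII against losartan or TRV023 against losartan. At an unadjusted p under 0.05 only Dbp passed, for AngII against losartan (log2 fold change 1.26, SE 0.465, unadjusted p = 0.0184, adjusted p = 0.476, edgeR), where 9.18% of all genes did. The share of all genes at that threshold was 10.9% for AngII against TRV023 and 4.55% for TRV023 against losartan. Mean Dbp thus ran from AngII through TRV023 and losartan down to vehicle, with adjusted p of 0.621, 0.998 and 0.9999 between these neighbors.

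To place each library on a single clock axis, the mean log2 CPM (read counts scaled to library size) of the Dbp arm was subtracted from that of the Arntl arm. The difference is given relative to its mean over the 12 libraries, so that a positive value means a relative excess of Arntl and Npas2. It was 1.23, -1.89 and -1.41 in AngII rats Ang2_922, Ang2_931 and Ang2_933, and -0.87, -0.73 and 0.014 in TRV023 rats Trv_917, Trv_918 and Trv_930. It was 0.93, -0.00015 and 0.098 in losartan rats Los_925, Los_964 and Los_965, against 1.33, 1.32 and -0.020 in vehicle rats Veh_923, Veh_924 and Veh_963. The 92x animals filled the upper end whatever they had been given, and AngII held both the lowest values and 1 of the highest.

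The group means on this axis were -0.69 ± 1.68 in AngII, -0.53 ± 0.47 in TRV023, 0.34 ± 0.51 in losartan and 0.88 ± 0.78 in vehicle (SD, n = 3 each). By number series, the values were -0.87 to -0.73 in 91x, 0.93 to 1.33 in 92x, -1.89 to 0.014 in 93x and -0.020 to 0.098 in 96x. The series, split after the values were seen, overlapped less than the groups did, with all of 92x above every other library. Within 92x, the single AngII rat differed from the 2 vehicle rats by -0.10 and the single losartan rat by -0.40, and within 96x the 2 losartan rats differed from the single vehicle rat by 0.069. In that AngII rat Dbp was higher by 0.90 and Tef by 0.58 in log2 CPM, with Arntl at 0.094 and Npas2 at 0.21. These differences have no test. No TRV023 rat shared a number series with a vehicle rat, so for TRV023 the drug and the series cannot be told apart by such a comparison.

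**Figure D3:**
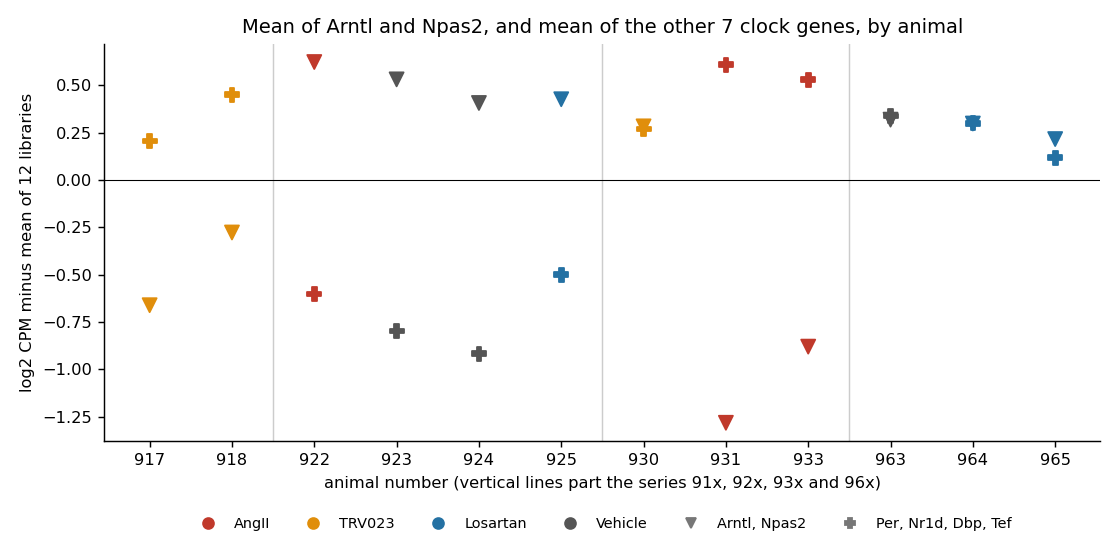
Mean log2 CPM of Arntl and Npas2 (triangles) and of the other 7 clock genes (crosses) in each of the 12 libraries, each relative to its mean over the libraries, ordered by animal number and colored by group. In the 92x series the triangles lie at 0.41 to 0.62 and the crosses at -0.92 to -0.50, and in Ang2_931 and Ang2_933 the order is the reverse.

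The excess in the 92x animals was spread over the members, although Arntl, Per1, Nr1d1 and Nr1d2 overlapped the other 8 libraries. All 7 genes of the Dbp arm had their lowest library in this series, and both Arntl and Npas2 had their highest there, all in FPKM. In log2 CPM the highest Arntl library was Los_964 of the 96x series. Per2 (2.82 to 4.64 FPKM), Per3 (2.00 to 4.04 FPKM), Dbp (6.24 to 11.5 FPKM) and Tef (14.9 to 22.7 FPKM) were below all 8 other libraries, where they were at least 4.87, 4.37, 12.2 and 29.0 FPKM in that order. Npas2 was above them, at 6.82 to 8.16 FPKM, against 2.05 to 6.37 FPKM in the rest. Of all genes tested, 0.683% lay wholly below and 0.868% wholly above in this way, and because the series was singled out for these values the counts are a description.

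When the number series was added to the groups in the 12-library fit, 8 of 9 members passed an unadjusted p of 0.05 for the series, where 10.3% of all genes did. The unadjusted p in edgeR was 0.000169 for Dbp, 0.000614 for Per2, 0.000841 for Tef, 0.000851 for Npas2, 0.00102 for Per3 and 0.00327 for Arntl. It was 0.0217 for Per1 and 0.0259 for Nr1d1, and Nr1d2 did not pass. After adjustment no gene passed, and the lowest adjusted p of a member was 0.155. The series split was made after the values of these members were seen, so the p-values for the series are a description and not a test. Within this fit Dbp differed between AngII and vehicle by 0.85 and Tef by 0.53 on the log2 scale, with unadjusted p of 0.0127 and 0.0357 in edgeR (adjusted p = 0.9999 for both), where 3.86% of all genes were under 0.05, whereas Arntl differed by 0.068 and Nr1d1 by -0.0037.

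Each gene's variance was also split by group and by series. Group accounted for 6.31% of the variance of Per1 in log2 CPM, 13.6% of Per2, 29.9% of Per3, 43.9% of Arntl, 46.3% of Tef and 55.2% of Dbp, whereas number series accounted for 58.0%, 79.7%, 84.8%, 62.2%, 84.5% and 80.0%, in the same order. The median over the 9 members was 29.9% for group and 62.2% for series, beside 28.2% and 36.1% over all genes. Groups and series share libraries unevenly, so these shares cannot be added. The series split was made after the values were seen, so its shares are a description. Within groups, the SD of the members had a median of 0.65 on the log2 scale, beside 0.32 over all genes.

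**Figure D4:**
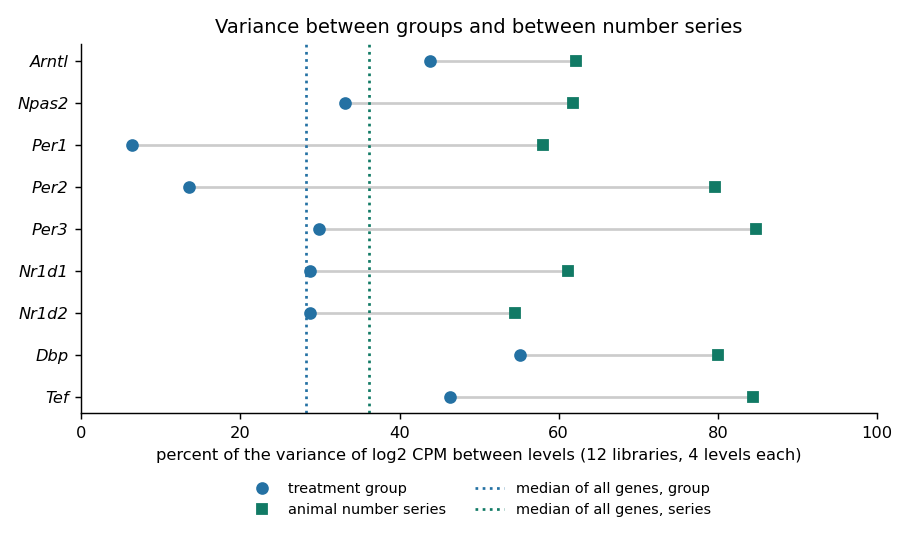
Percent of the variance in log2 CPM that lies between the 4 groups (circles) and between the 4 number series (squares) for each clock gene over 12 libraries. The dotted lines are the medians of all genes tested, 28.2% for group and 36.1% for series, and every square lies to the right of its circle.

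The members also moved together from library to library. All 14 correlations between a gene of the Arntl arm and a gene of the Dbp arm were negative over the 12 libraries, with a median r of -0.53, and all 21 within the Dbp arm were positive, with a median r of 0.70. Both signs held in full after group means were subtracted, with medians of -0.47 and 0.69. After series means were subtracted, 10 of 14 were negative and 11 of 21 positive, with medians of -0.078 and 0.047. The first principal component took 67.7% of the variance of the 9 genes, with Arntl and Npas2 on one side and the other 7 on the other.

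Of the 8 relations with Arntl, 2 passed after adjustment over the 8, in permutations that took no account of group or number series. Dbp gave r = -0.86 (permutation p = 7e-05, adjusted p = 0.00056) and rho = -0.80 (permutation p = 0.00296, adjusted p = 0.0237). Npas2 gave r = 0.85 (permutation p = 0.00097, adjusted p = 0.00388) and rho = 0.68 (permutation p = 0.0184, adjusted p = 0.0490). Tef, with r = -0.58 (adjusted permutation p = 0.0880), passed by rank alone, with rho = -0.69 (adjusted permutation p = 0.0490). None of the 8 passed without Ang2_931 and Ang2_933, the libraries farthest from the median of Arntl, where Dbp gave r = -0.66 and Npas2 r = 0.70. The relations therefore rest in part on those rats.

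With series means subtracted r with Arntl was -0.78 for Dbp and 0.63 for Npas2. For Dbp this value was -0.25 without the 93x animals (9 libraries) and -0.77 or stronger without any other series, so it rests largely on 93x. Within 92x Arntl varied little, at 12.3 to 13.3 FPKM, and Dbp was highest in Ang2_922, which also had the highest Arntl of the series in log2 CPM. Before subtraction of series means, r without the 92x animals was -0.95 for Dbp (adjusted permutation p = 0.00016, 8 libraries). Because 92x was singled out by clock gene values, Dbp among them, this p is a description and not a test. Single series held too few libraries for a value of their own. The ratio of Dbp to Arntl, both in FPKM, was 0.911, 14.99 and 5.68 in AngII rats Ang2_922, Ang2_931 and Ang2_933, and 2.56, 3.56 and 1.67 in TRV023 rats Trv_917, Trv_918 and Trv_930. It was 0.663, 0.994 and 1.88 in losartan rats Los_925, Los_964 and Los_965, against 0.492, 0.549 and 1.18 in vehicle rats Veh_923, Veh_924 and Veh_963. The TRV023 ratios all exceeded those of vehicle, and those of AngII and losartan overlapped them.

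Per1 and Nr1d2 had the weakest relations with Arntl, with r = -0.27 (permutation p = 0.404) and -0.29 (permutation p = 0.363). Because Per1 is also a target of the glucocorticoid receptor and of immediate early signaling, its log2 CPM was set against 10 genes known to respond to glucocorticoids and 10 immediate early genes, a comparison chosen after the values were seen. Tsc22d3, which encodes the glucocorticoid-induced leucine zipper, gave r = 0.93 and rho = 0.92 (adjusted permutation p = 0.0004 and 0.0006, over the 20 relations). Fkbp5, a co-chaperone of the receptor, gave r = 0.79 and rho = 0.74 (adjusted permutation p = 0.0222 and 0.0389), and the metallothionein Mt2A gave r = 0.77 and rho = 0.75 (adjusted permutation p = 0.0222 and 0.0389).

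In all, 6 of the 10 glucocorticoid genes passed by r and 5 by rho, and none of the 10 immediate early genes did by either. Without Los_964 and Veh_924, the libraries farthest from the median of Per1, 4 glucocorticoid genes still passed, with Tsc22d3 at r = 0.90. With group means subtracted r was 0.93 for Tsc22d3, with series means subtracted 0.86 and without the 92x animals 0.85. Over the 10 glucocorticoid genes the median r was 0.71 with Per1, 0.50 with Per2 and 0.19 with Dbp, and the differences between these were not tested.

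Per library, Tsc22d3 measured 63.5, 151.7 and 121.1 FPKM in AngII rats Ang2_922, Ang2_931 and Ang2_933, where Per1 measured 19.4, 48.4 and 30.7 FPKM. In TRV023 rats Trv_917, Trv_918 and Trv_930 it measured 111.2, 103.2 and 202.9 FPKM, where Per1 measured 40.3, 23.8 and 53.6 FPKM. Both genes put the libraries of each of these groups in the same order. In losartan rats Los_925, Los_964 and Los_965 Tsc22d3 measured 72.1, 168.9 and 107.0 FPKM and Per1 16.2, 56.6 and 20.6 FPKM. In vehicle rats Veh_923, Veh_924 and Veh_963 the values were 87.8, 56.7 and 265.0 FPKM for Tsc22d3 and 28.1, 13.4 and 57.0 FPKM for Per1. The order of the libraries by Per1 and by Tsc22d3 was again the same within losartan and within vehicle.

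**Figure D5:**
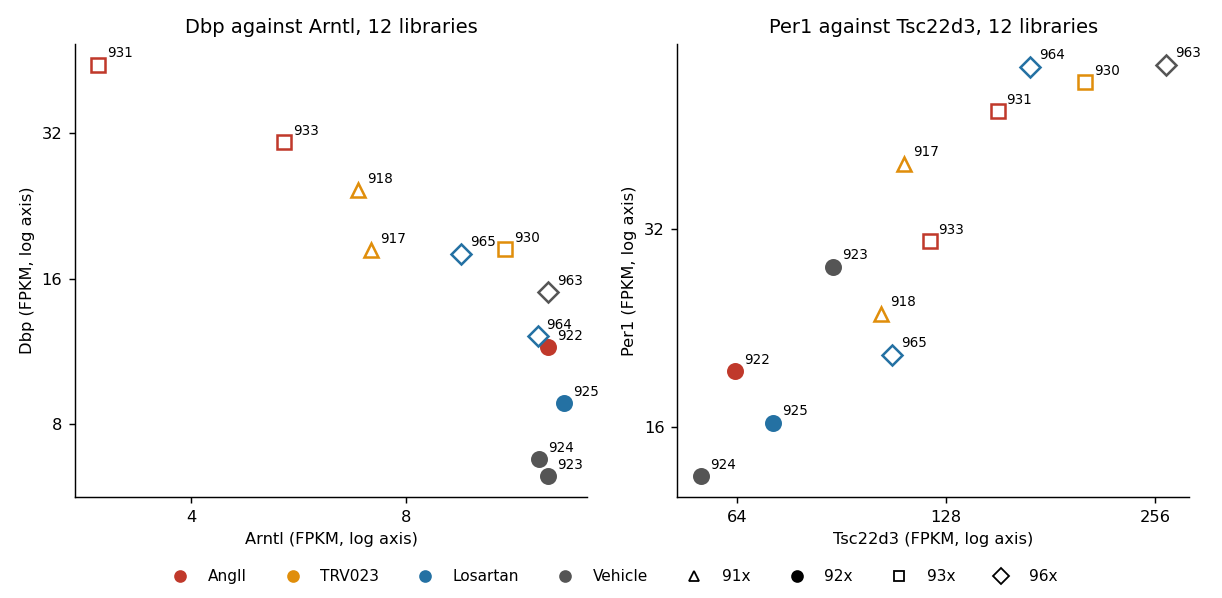
Dbp against Arntl (left) and Per1 against Tsc22d3 (right) in FPKM on log axes, with a point for each of the 12 libraries, colored by group, shaped by number series and marked with the animal number. Dbp is lower where Arntl is higher (r = -0.86), with Ang2_931 at the far end, and Per1 is higher where Tsc22d3 is higher (r = 0.93).

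Further genes of the clock, not counted as members, differed little between groups. Of 18 further genes of the pathway, 17 were tested in each comparison with vehicle, and at an unadjusted p under 0.05 none passed with AngII or TRV023 and 1 with losartan. This was Ciart, a repressor of the BMAL1 pair, which measured 1.20, 3.18 and 1.95 FPKM in losartan rats Los_925, Los_964 and Los_965, against 0.751, 0.320 and 1.19 FPKM in vehicle rats Veh_923, Veh_924 and Veh_963. Its log2 fold change was 1.56 (SE 0.644, unadjusted p = 0.0416, adjusted p = 0.9999, edgeR). None passed after adjustment in any comparison. The median log2 fold change of the 17 was 0.10 with AngII, 0.10 with TRV023 and 0.20 with losartan. The mean level of the 16 kept in the fit of all libraries gave r = -0.35 with the clock axis (permutation p = 0.267, adjusted p = 0.863 over 17 lists). This mean ignores the direction of each gene. Between 92x and the other libraries Ciart differed by -1.23, Hlf by -0.66 and Cry1 by 0.22 in log2 CPM. Opposite movements cancel in such a mean, so it cannot decide whether these genes follow the axis.

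Cry1 and Cry2, which encode the cryptochromes that act with the PER proteins, stayed within 3.33 to 9.68 FPKM and 11.7 to 21.0 FPKM over all libraries. In AngII rats Ang2_922, Ang2_931 and Ang2_933 Cry1 measured 8.495, 4.82 and 3.33 FPKM, against 8.33, 7.88 and 5.81 FPKM in vehicle rats Veh_923, Veh_924 and Veh_963. Nfil3, which competes for D-boxes, ranged from 6.42 FPKM in Los_965 to 48.2 FPKM in Los_964, the lowest and the highest of all 12 libraries.

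Of all genes, 11.9% passed the unadjusted threshold with AngII, 5.56% with TRV023 and 1.65% with losartan. Among the 10 glucocorticoid genes, 1 passed this threshold in each comparison and none the adjusted one. These were the cell cycle inhibitor Cdkn1a with AngII (log2 fold change 0.45, adjusted p = 0.396), the phosphatase gene Dusp1 with TRV023 (1.22, adjusted p = 0.844) and the kinase gene Sgk1 with losartan (0.53, adjusted p = 0.9999), all by edgeR. Among the 10 immediate early genes, 3 passed with TRV023, namely Fos (1.61) and Ier2 (0.53), which were higher, and Atf3 (-0.82), which was lower, with adjusted p of 0.808, 0.822 and 0.830 in edgeR. None passed with AngII or losartan.

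Markers of lung cells were set against the clock axis as well. Of 17 gene lists, including 14 of cell types, none was related to the axis after adjustment. The largest r was 0.59 for the mitotic genes Mki67, Top2a, Prc1, Tpx2 and Ccnb1 (permutation p = 0.0473, adjusted p = 0.805). Their summed level was 20.6 to 37.1 FPKM in AngII, 19.4 to 23.2 in TRV023, 21.2 to 48.1 in losartan and 39.5 to 53.6 in vehicle, and none of the 5 was at 0 in any library. With TRV023 all 5 were lower at an unadjusted p under 0.05 in edgeR, as 2.96% of all genes were, beside the higher Dbp, Tef and Per3. The part of the mitotic genes in those results was not tested.

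Several marker lists differed beside the higher Dbp and Nr1d1 with AngII. Of the mast cell genes 3 of 4 were higher at an unadjusted p under 0.05 in edgeR, as 6.54% of all genes were. Tpsb2 had a log2 fold change of 0.73. The summed level of the mast cell list was 647.1 to 973.4 FPKM in AngII, against 489.2 to 671.3 FPKM in vehicle. Of the mitotic genes 2 of 5 were lower at this threshold, as 5.39% of all genes were. Of the heart muscle genes tested, Actc1 was lower (-2.68), with values that overlapped those of vehicle, and Tnnt2 was higher (0.57) without passing. Of the club cell genes, all 3 that could be tested (Scgb1a1, Scgb3a1 and Scgb3a2) were lower at an unadjusted p under 0.05 in edgeR, and the summed level of the list was 6802 to 14080 FPKM in AngII, against 13130 to 30940 FPKM in vehicle. Bpifa1, the remaining gene of the list, was at 0 in at least 1 library of AngII and of vehicle. Across the 12 libraries the club cell list gave r = -0.0098 and the mast cell list r = -0.073 with the clock axis. With TRV023, 2 of 5 neutrophil, 2 of 4 mast cell and 2 of 4 alveolar type 1 genes were higher at the same threshold, as 2.61% of all genes were. Actc1 was lower (-3.08) at that threshold, with values that overlapped those of vehicle, and Tnnt2 was lower (-0.41) without passing. The part of these lists in the results for the clock genes was not tested. Fewer cells of a type and less RNA per cell cannot be told apart in whole lung tissue.

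The genes most like the clock axis were sought among the 10984 genes with a mean log2 CPM of at least 2. The most positive were Osgepl1 (r = 0.93), G3bp2 (0.90), Tmx1 (0.88), Ptbp3 (0.88), Slc36a4 (0.87) and Alpk3 (0.87) over the 12 libraries, and among the most negative were Mrpl23 (-0.91), Pigp (-0.90), Apoe (-0.89), Map2k5 (-0.88) and Gadd45b (-0.87). All 6 of the first set were higher, and the named genes of the second lower, on average in the 92x animals, by 1.02 for Alpk3 and -0.88 for Apoe on the log2 scale. These are descriptions, and the points share libraries and number series.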

How the data were processed

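Lung RNA of 12 MCT rats was sequenced, 3 per group, and groups were read from the labels. The authors had reads aligned to the rat genome and deposited whole read counts per gene and FPKM values, which divide the count by gene length and counted reads. The aligner, the counter, the build and whether strand was used were not given in the sources used here. Fold changes and p-values of the authors, and a scaled signal, also stand in the deposited tables but were not used. Each drug was compared with vehicle on the counts of its 6 libraries with edgeR 4.0.16 in R 4.3.3 (filterByExpr, TMM, glmQLFit, glmQLFTest) and Benjamini-Hochberg adjustment over all genes tested (15059 with AngII, 15193 with TRV023, 15156 with losartan). Drugs were compared in a single fit of 15662 genes. Log2 CPM used a prior count of 2. The clock axis was planned with Clock, and was computed without it, which leaves 8 relations with Arntl. Correlations used 100000 two-sided permutations over the libraries. These took no account of group or number series, so their p-values do not separate a relation between genes from shared differences between groups or series. The script was tested on simulated counts. Labels name each sample by group and a number, read here as an animal number. The paper gives 3 rats per group, so p-values measure the spread between rats.

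The members and lists were chosen with earlier results of these data known. By rule, the text names every member, genes of the further lists under an unadjusted p of 0.05, cell type markers, and the 6 genes most and least like the clock axis, 1 of which is not reported here. Cry1, Cry2, Nfil3, Tsc22d3, Fkbp5 and Mt2A were chosen after their values were seen. Alternatives were DESeq2 1.42.0, limma 3.58.1 on log2(FPKM + 1), other normalizations and filters, all groups in 1 fit, removal of the gene length trend, and leaving out libraries or the 96x animals. The number series as a covariate, values within 92x or 96x, the row described as clock, leaving out 92x, and leaving out each series for Dbp against Arntl were added after the data were seen. Figures used matplotlib 3.10.9.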

Additional observations from a re-analysis of the deposited data

How the results depend on the processing

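No member was called in any comparison with vehicle under any alternative, and DESeq2 gave 1 member (Dbp) for a difference among the 4 groups. The count at an unadjusted p under 0.05 with AngII was 1 with library totals (13.6% of all genes) and 4 without the 96x animals (9.55%). With TRV023 it was 2 with all groups in 1 fit (3.84%), 7 without 96x (8.13%) and 2 with number series as a covariate (5.76%). With losartan it was 1 with the covariate (2.67%). Leaving out 96x removes only Veh_963 from the AngII and TRV023 comparisons, so it repeats the fits without that library. The vehicle rats left are then all of 92x. For losartan, leaving out 96x leaves a single losartan rat (Los_925), so no count is given for that setting. Leaving out single libraries gave 1 to 5 members with AngII, 1 to 7 with TRV023 and 0 to 5 with losartan. Of all genes, 6.6% to 20.4%, 4.27% to 8.13% and 1.33% to 5.47% passed in these fits, in that order. The differences in the clock axis were -2.53 to -0.97, -1.85 to -1.18 and -0.98 to -0.31. Within 92x the AngII difference was -0.10 and the losartan difference -0.40, and within 96x the losartan difference was 0.0686.

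With number series as a covariate, log2 fold changes turned to 0.0681 for Arntl, 0.234 for Npas2, -0.0231 for Per1, -0.387 for Per3 and -0.00374 for Nr1d1 with AngII. They turned to 1.304 for Arntl, 1.68 for Npas2, -0.44 for Per3, -0.95 for Nr1d1, -0.13 for Nr1d2 and -0.35 for Dbp with TRV023, values that rest on Trv_930 through the AngII rats of its series, and to -0.42 for Per1 with losartan. Per1 with AngII was -0.000537 with library totals. Per2 with AngII was 0.0120 in DESeq2, 0.0129 with RLE, 0.0155 with all groups in 1 fit, 0.18 with the length trend removed and 0.31 without 96x. With losartan, Per1 was -0.0610 in limma and -0.0769 with library totals, Arntl was 0.0377 and Per1 -0.41 without 96x (1 losartan rat), and Per2 0.00971 with the length trend removed. Single libraries turned the sign for Nr1d2 (-0.0481 to 0.849), Per1 (-0.27 to 0.82) and Per2 (-0.22 to 0.31) with AngII, Per1 (-0.11 to 0.93) with TRV023, and Arntl (-0.148 to 0.0777), Per1 (-0.84 to 0.69) and Per2 (-0.24 to 0.28) with losartan. The cause of these changes was not tested.

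Relations with Arntl passed for 4 members without 96x, 0 without Ang2_931 and Ang2_933, and, as a description only, 1 without 92x. Without 92x, r turned to 0.17 for Per1, 0.23 for Per2 and 0.10 for Nr1d2, and without Ang2_931 and Ang2_933 to 0.0227 for Per1. The median spread of the members within groups stood at percentile 79.8 of all genes, and 88.9 on log2(FPKM + 1). No paired analysis was possible because animal numbers are not shared between groups. With 3 rats per group and counts of 104 or more, precision is set by the spread between rats rather than by counting.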
